A study of Mus musculus with 11 samples.

Results

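Apolipoprotein E (Apoe) and 9 other genes of lipoprotein handling and cholesterol efflux were followed in the adventitia, the outer connective tissue coat, of the abdominal aorta of mice. The genes were Apoe, Abca1, Abcg1, Nr1h3, Lpl, Pltp, Scarb1, Lrp1, Npc2 and Lipa, taken as every probe set of the array whose only annotated gene symbol was one of these names. All 10 genes were found, with 19 of 22626 probe sets, out of 12393 genes on the array. A level filter passed 18 of the 19 and at least 1 for each gene. The filter required 3 arrays above their own 40th percentile, and the probe set left out was another one of Abca1. Apoe itself lay above it on 3 ATLO, 2 outside-lesion and 3 wild-type arrays, and the other 17 probe sets did so on all 11 arrays.

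Affymetrix arrays were made from laser-dissected, pooled adventitia of male mice aged 78 weeks kept on ordinary chow. ATLO adventitia (n = 4) came from Apoe-deficient mice of the strain B6.129P2-Apoe tm1Unc/J, which carry the targeted Apoe allele in every cell, and lay inside the atherosclerotic lesion area, where artery tertiary lymphoid organs (ATLO) form as aggregates of lymphocytes. Outside-lesion adventitia (n = 4) came from the same strain away from the lesions, and wild-type adventitia (n = 3) from mice labelled C57BL. The design text describes the second group as mice without lesions, and the wild-type titles carry the letters PNS without explanation. RNA of both mutant groups was extracted with phenol and chloroform and transcribed in vitro for 68 h, and wild-type RNA was extracted with a lipid tissue kit and transcribed for 24 h, so genotype and protocol cannot be told apart. Whether the samples of a group were taken from different animals is not stated, so the p-values speak only of the spread among these samples, part of which may be technical. The number of arrays limits the precision.

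Cholesterol that cells cannot burn leaves them through transporters. Abca1 passes cholesterol and phospholipid to lipid-poor apolipoproteins, Abcg1 passes cholesterol to formed high-density lipoprotein, and Apoe is an acceptor that macrophages secrete and a ligand for receptors that clear remnant particles. Nr1h3 encodes LXR alpha, a nuclear receptor that senses oxysterols and switches on Abca1, Abcg1, Apoe, Lpl and Pltp in macrophages. Lpl and Pltp act on lipoproteins outside the cell, Scarb1 and Lrp1 take lipoprotein lipid in, and Lipa and Npc2 release cholesterol from lysosomes. Macrophages that fill with lipid are a hallmark of atherosclerosis, and fat cells around the artery also use Lpl and store cholesterol.

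Promoters of 3 genes are shown because the LXR pathway is read at its regulatory DNA: that of the disrupted gene Apoe and those of Abca1 and Pltp, known LXR targets. RefSeq promoter windows of GRCm38.p6, each of 300 bases around an annotated start, were found for 7 of the 10 genes, and Abcg1, Lpl and Scarb1 had none. They are printed 5′ to 3′ on the gene's strand. Capitals mark matches to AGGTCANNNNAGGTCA with at most 3 mismatches (the spacing known as DR4, to which LXR with its partner RXR binds) and to CACGTG (the core of the element bound by lysosomal regulators of the TFEB family), searched on both strands.
Apoe, chr7:19699139-19699438, minus strand: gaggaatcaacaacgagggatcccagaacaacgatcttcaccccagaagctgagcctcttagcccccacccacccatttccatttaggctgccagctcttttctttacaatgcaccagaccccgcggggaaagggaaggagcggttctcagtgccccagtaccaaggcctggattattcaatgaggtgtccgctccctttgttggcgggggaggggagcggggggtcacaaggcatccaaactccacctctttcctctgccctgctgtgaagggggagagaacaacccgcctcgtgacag
Abca1, chr4:53159846-53160145, minus strand: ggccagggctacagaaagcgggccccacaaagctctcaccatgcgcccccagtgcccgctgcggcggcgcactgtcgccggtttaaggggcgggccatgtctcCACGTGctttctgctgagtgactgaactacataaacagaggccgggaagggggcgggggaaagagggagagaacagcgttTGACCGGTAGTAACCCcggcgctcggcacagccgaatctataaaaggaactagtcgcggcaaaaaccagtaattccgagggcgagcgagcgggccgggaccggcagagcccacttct
Pltp, chr2:164857659-164857958, minus strand: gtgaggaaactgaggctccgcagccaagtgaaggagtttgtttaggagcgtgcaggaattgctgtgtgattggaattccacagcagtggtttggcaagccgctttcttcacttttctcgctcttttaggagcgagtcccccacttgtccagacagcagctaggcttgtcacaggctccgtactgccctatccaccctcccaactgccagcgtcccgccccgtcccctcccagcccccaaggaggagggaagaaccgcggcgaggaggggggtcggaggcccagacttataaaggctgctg
The Abca1 window held the only DR4 match among the 10 windows of the 7 genes, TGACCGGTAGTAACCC on the minus strand with 3 mismatches, whose first base lies 67 bases before the start. It also held their only CACGTG, 147 bases before the start. DR4 matches of this quality occur in 21.9% of 32817 RefSeq promoter windows, and CACGTG occurs in 7.15%. A GGGCGG box lay in the windows of Abca1, Pltp, Lrp1, Npc2 and Lipa, against 35.6% of all windows. The Apoe window shown is the most upstream of 3 and held none of these letters. A match in letters is a description and not a site.

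Apoe was read at 150, 147, 150.2 and 86.9 in ATLO, at 59.8, 179.7, 45.9 and 154.5 outside the lesion, and at 12118.1, 11969.4 and 13164.3 in wild type (Affymetrix signal, scaled by the authors so that arrays share a trimmed mean). Every mutant array therefore lay far below every wild-type array, and ATLO replicate 4 and outside-lesion replicates 1 and 3 were the lowest. The labels and the targeted gene match on all 11 arrays, although no label or file gives the position of this probe set relative to the disruption. Apoe was lower than in wild type by a log2 change of -6.57 in ATLO and of -7.05 outside the lesion (limma with Benjamini-Hochberg adjustment, adjusted p = 1.97e-06 and 2.15e-06). The size of these changes is approximate, since the mutant signals are low and whether they exceed background was not tested. Against wild type these comparisons share the 3 wild-type arrays. Between the mutant groups the Apoe signals overlapped (log2 change 0.48, 95% interval -0.33 to 1.29, adjusted p = 0.363), and they varied more outside the lesion, with a coefficient of variation of 60.9% there and 23.3% in ATLO.

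**Figure D1:**
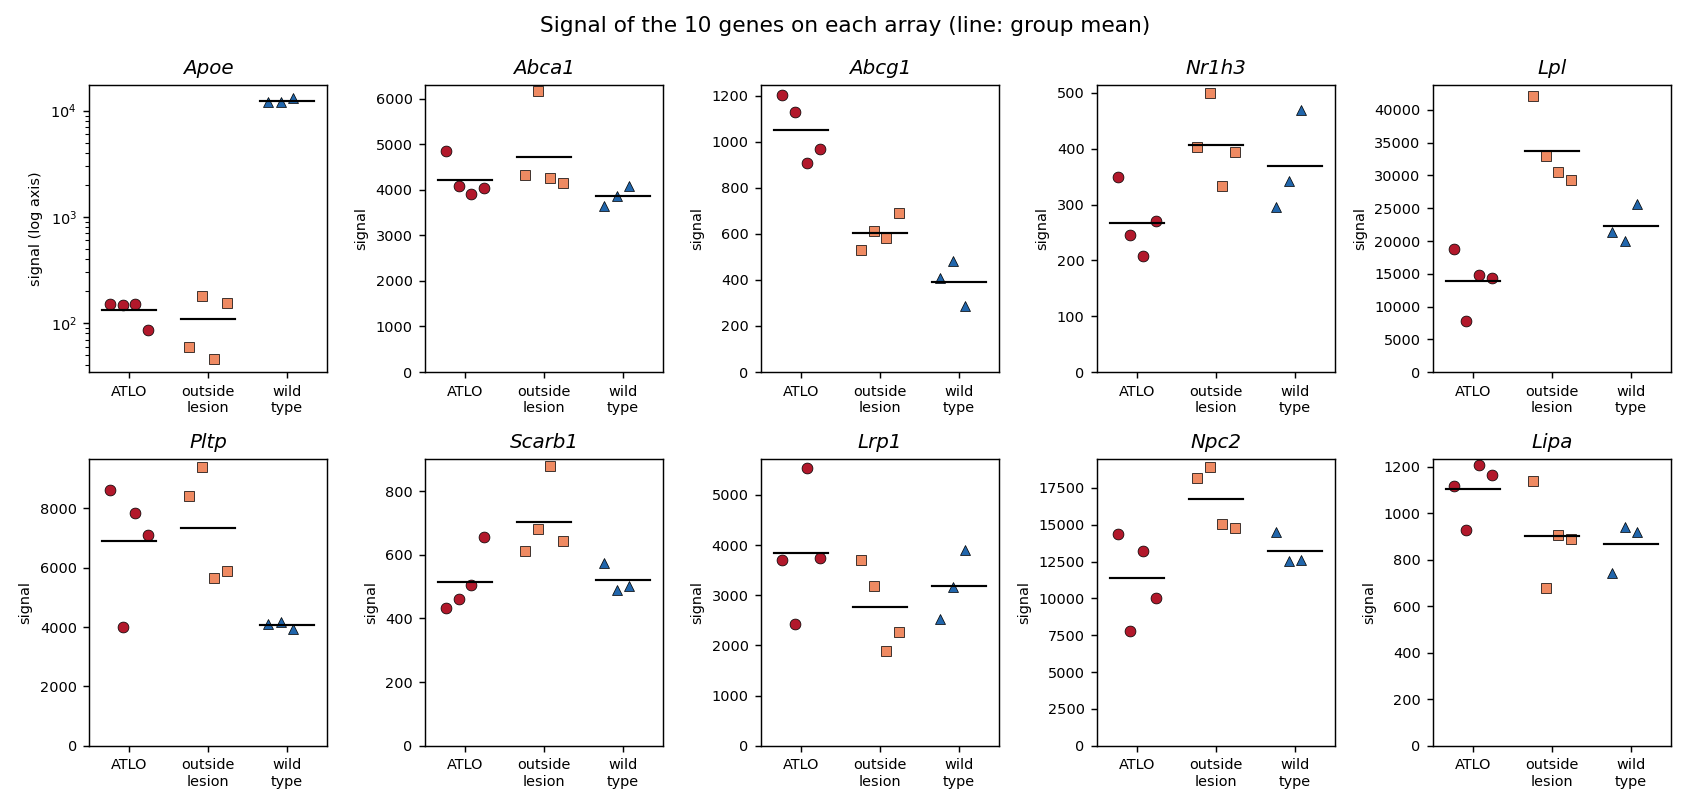
Scaled Affymetrix signal of the 10 genes on each of 11 arrays, with ATLO, outside-lesion and wild-type groups from left to right (points: arrays, lines: group means, log axis for Apoe only, other axes start at 0). Apoe separates wild type from both mutant groups, Abcg1 steps down from ATLO through outside-lesion to wild type, and Lpl is highest outside the lesion.

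Setting ATLO against outside-lesion adventitia compares tissue with lymphoid aggregates and tissue of the same genotype away from lesions. The efflux transporter Abcg1 was higher in ATLO by 1.74-fold, while Lpl, the lysosomal carrier Npc2 and the receptor Nr1h3 were lower. In all, 1 of the 10 genes was called higher and 3 lower, which is 4 of 10 where 34.7% of the 9055 genes tested were called in either direction (19.8% higher and 14.9% lower). Of all called genes 57% were higher in ATLO, and 44.9% were under equal array medians. Without overlap between the groups, 1 of the 10 genes lay higher (Abcg1) and 2 lower (Lpl and Npc2), where 19.2% of all genes lay higher and 14.1% lower. The median log2 change of the 10 was -0.13, against 0.10 for all genes. A gene with several probe sets is counted by the one with the highest mean, and called means an adjusted p under 0.05.

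Abcg1 was read at 1201.6, 1129.1, 908.3 and 970.4 in ATLO, at 529.9, 614, 580.9 and 689.8 outside the lesion and at 406.9, 483.3 and 286.1 in wild type. The 3 groups did not overlap. In ATLO it was higher than outside the lesion by a log2 change of 0.80 ± 0.18 (SE, adjusted p = 0.00362) and higher than in wild type by 1.45 ± 0.19 (adjusted p = 2.66e-04, 2.73-fold). Outside-lesion signals lay above all wild-type signals, but that difference was not called (log2 change 0.65 ± 0.19, adjusted p = 0.0784). With the actin 3′ to 5′ ratio, a measure of RNA length, as a covariate, the rise over outside-lesion adventitia was no longer called (log2 change 0.63, adjusted p = 0.0713). That ratio averaged 4.61 ± 2.71 in ATLO and 8.71 ± 2.83 outside the lesion (SD, n = 4 each; two-sided exact permutation test, p = 0.114), and 4.98 ± 0.683 in wild type (n = 3).

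Most markers of macrophages, lymphocytes and fibroblasts were, like Abcg1, higher in ATLO than outside the lesion. Between outside-lesion and wild-type tissue Abcg1 differed by a log2 change of 0.65, which was not called. The median log2 changes there were -0.28 for macrophage, -0.24 for B cell, -0.22 for T cell and -0.32 for fibroblast markers. Single markers ran from -0.80 to 0.40, -0.66 to 0.24, -1.36 to 0.30 and -1.28 to 0.57 in the same order. Of 14 measured macrophage markers, 12 were higher in ATLO than outside the lesion, with summed signals from 53740 to 81750 in ATLO, 19400 to 36270 outside the lesion and 26910 to 37780 in wild type. The marker at or near the floor was Itgam, with means of 158 in ATLO, 20.8 outside the lesion and 51.7 in wild type. Against wild type 8 of the 14 were higher in ATLO. All 5 measured B cell markers were higher in ATLO than outside the lesion, with sums of 8061 to 21020 in ATLO, 610.1 to 1819 outside the lesion and 546.9 to 6493 in wild type. So were all 5 T cell markers, with sums of 3097 to 6092 in ATLO, 401.8 to 661.1 outside the lesion and 458.9 to 1153 in wild type. Of 8 fibroblast markers 5 were higher, with sums that overlapped, from 54580 to 103700 in ATLO and 29910 to 78590 outside the lesion, beside 51730 to 58940 in wild type. Against wild type 4 B cell, 5 T cell and 3 fibroblast markers were higher in ATLO. The part of these cells in the Abcg1 result was not tested. In tissue samples such as these, fewer cells of a type and less RNA per cell cannot be told apart.

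Abca1, the partner transporter, was read at 4845, 4085.6, 3910 and 4041.1 in ATLO, at 4317.4, 6176.5, 4265.5 and 4145.9 outside the lesion and at 3646.4, 3855.6 and 4087.9 in wild type. Apart from outside-lesion replicate 2, all arrays lay between 3646.4 and 4845. ATLO did not differ detectably from outside-lesion adventitia (log2 change -0.15, 95% interval -0.48 to 0.18, adjusted p = 0.503) or from wild type (0.12, -0.24 to 0.48, adjusted p = 0.613). These intervals leave out a change the size of that of Abcg1, whose 95% intervals were 0.42 to 1.18 and 1.04 to 1.86. The second tested probe set of Abca1 was read at 139.7 to 284.1 in ATLO, 168.3 to 310.6 outside the lesion and 217 to 243.2 in wild type, and was not called in any comparison.

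Nr1h3 (LXR alpha) was read at 348.6, 244.8, 207.3 and 269.7 in ATLO, at 402.5, 499.6, 332.7 and 393.6 outside the lesion and at 296.1, 342.7 and 469.5 in wild type. ATLO replicate 1 lay above outside-lesion replicate 3, so the mutant groups overlapped by that pair. Nr1h3 was lower in ATLO than in outside-lesion tissue (log2 change -0.62 ± 0.21, adjusted p = 0.0378) and was not called against wild type (-0.46 ± 0.23, adjusted p = 0.144). Leaving out 1 array moved the log2 change between -0.75 and -0.50 but ended the call for 6 of 8 arrays. The adjusted p was 0.0804 without ATLO replicate 2, 0.103 without ATLO replicate 3 and 0.0658 without ATLO replicate 4. Without outside-lesion replicates 1, 2 and 4 in turn it was 0.0669, 0.0971 and 0.0671. The call was also lost with the actin ratio as a covariate (-0.72, adjusted p = 0.0935), with no filter (0.0661) and with the replicate block (0.0651).

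Of 13 other measured genes of the LXR pathway, namely receptors, coregulators and target genes, 1 was higher and 3 lower in ATLO than outside the lesion, with a median log2 change of -0.26 (all genes: 34.7% called, median 0.10), so the share called was near that of all genes. Cd5l, a macrophage survival protein induced by LXR, averaged 845 ± 227 in ATLO and 152 ± 63.9 outside the lesion (SD, n = 4 each; log2 change 2.58, adjusted p = 1.43e-04). Lower were Srebf1, the transcription factor for fatty acid synthesis (-0.86, adjusted p = 0.018), the LXR partner Rxrb (-0.78, adjusted p = 0.0372) and the phospholipid-remodelling enzyme Lpcat3 (-0.66, adjusted p = 0.0153). Against wild type, Cd5l was again higher in ATLO (log2 change 2.27, adjusted p = 0.00123) and Lpcat3 lower (-0.58, adjusted p = 0.0456). Between outside-lesion and wild-type adventitia limma called 0 of the 13, where only 3.08% of all genes were called. An unadjusted p under 0.05 was found for 0 of the 13 and for 1995 of the 9055 genes tested. Of the calls in this list, those lost when 1 array was left out were Rxrb (for 6 of 8 arrays), Srebf1 (without ATLO replicate 2 or outside-lesion replicate 3) and Lpcat3 against wild type (6 of 7 arrays).

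Lpl, the lipase that releases fatty acids from circulating triglyceride at the vessel wall, was read at 18735, 7804.7, 14780.5 and 14358 in ATLO. Outside the lesion it was read at 42108.7, 32916.4, 30604.1 and 29332.7, and in wild type at 21397.3, 19965.5 and 25696.4. The 3 groups did not overlap, with wild type between the mutant groups. Lpl was lower in ATLO than outside the lesion by a log2 change of -1.33 ± 0.25 (adjusted p = 0.00136), and its second probe set was lower by -1.87 ± 0.26 (adjusted p = 1.38e-04). Against wild type the second probe set was called lower in ATLO (-1.06 ± 0.28, adjusted p = 0.0139) and the first was not (-0.74 ± 0.27, adjusted p = 0.0601). The second call was lost without wild-type replicate 3 (-0.85, adjusted p = 0.0728), and the first was made without ATLO replicate 1 (-0.91, adjusted p = 0.0282) and under quantile normalization (-1.14, adjusted p = 2.65e-04).

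Fat cell markers, like Lpl, were highest outside the lesion. Summed signals of 7 white adipocyte markers ran from 27870 to 80300 in ATLO, 102100 to 176400 outside the lesion and 65490 to 78250 in wild type, so ATLO and wild type overlapped. Of these, 6 were called lower in ATLO than outside the lesion and 4 lower than in wild type, and 0 of the 7 lay at the floor on any array. ATLO replicates 1 and 2 held the highest and the lowest ATLO values of both Lpl and the fat cell sum. Brown adipocyte markers summed to 1675 to 5639 in ATLO and 16590 to 47020 in wild type. Outside the lesion they summed to 75610 to 85680 on 3 arrays but 7247 on replicate 2, whose Lpl was the second highest of its group. Endothelial markers were also lower in ATLO than outside the lesion for 4 of 6 genes, with sums of 1844 to 2959 in ATLO, 3595 to 5743 outside the lesion and 3072 to 4160 in wild type, and 2 of the 6 were lower than in wild type. The part of these cells in the Lpl result was not tested.

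**Figure D2:**
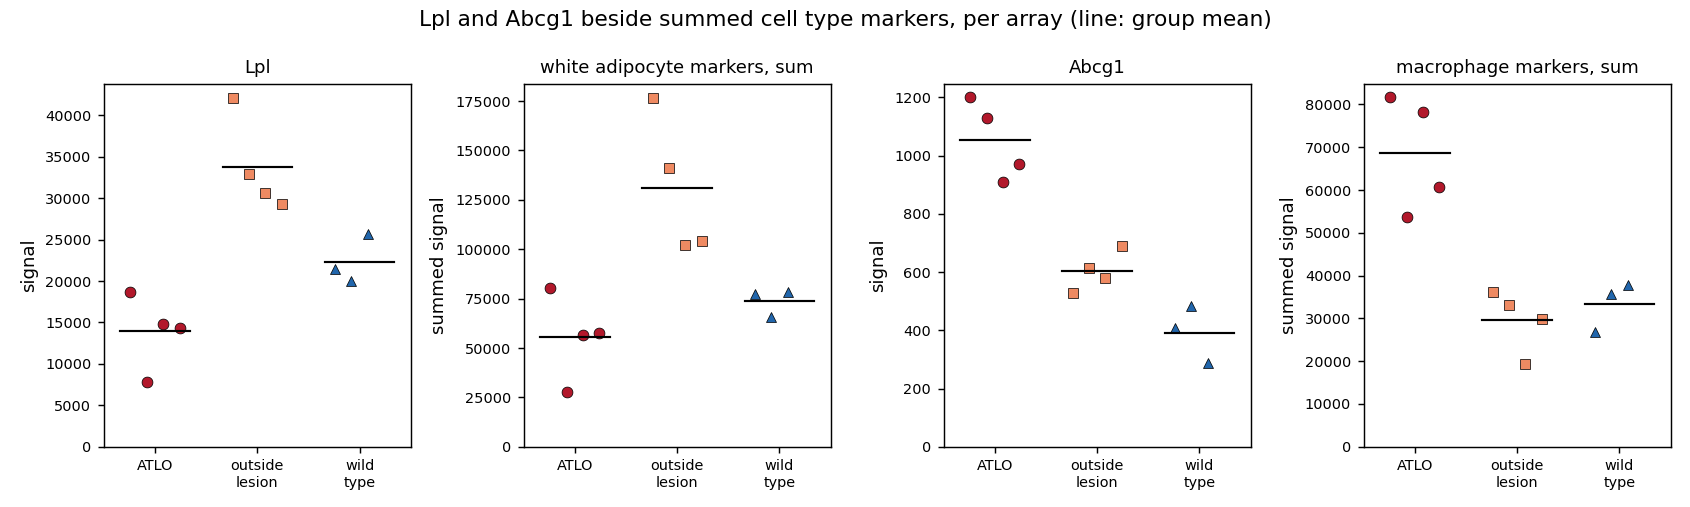
Signals of Lpl and Abcg1 and summed signals of 7 white adipocyte and 14 macrophage markers on each array (points: arrays, lines: group means, axes from 0). Lpl and the adipocyte sum are highest outside the lesion, and Abcg1 and the macrophage sum are highest in ATLO, from 53740 upwards.

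Pltp, which moves phospholipid between lipoproteins, gave different answers from its probe sets. The probe set that represents it was read at 8630, 4001.7, 7837.2 and 7099.9 in ATLO, at 8410, 9397.9, 5666.3 and 5901 outside the lesion and at 4086.8, 4173 and 3944.8 in wild type. All mutant arrays but ATLO replicate 2 lay above all wild-type arrays, and the wild-type arrays lay close together. The second probe set was read at 1902.8, 1686.5, 3692.4 and 2596.1 in ATLO, at 1824.9, 1685.2, 919.4 and 1326.7 outside the lesion and at 944.8, 903.8 and 932.5 in wild type. By the second probe set Pltp was higher in ATLO than in outside-lesion tissue (log2 change 0.76 ± 0.25, adjusted p = 0.0331) and than in wild type (1.35 ± 0.27, adjusted p = 0.00317). The representing one was called in neither comparison (-0.12 ± 0.24, adjusted p = 0.751, and 0.70 ± 0.26, adjusted p = 0.0591), and its change from outside-lesion tissue turned positive under quantile normalization (0.12) and array weights (0.10). The second probe set's call against outside-lesion tissue held under 11 of 20 alternatives. It was lost without ATLO replicates 3 and 4 (adjusted p = 0.0965 and 0.0784), without outside-lesion replicates 3 and 4 (0.0997 and 0.0694) and under equal array medians (0.0889). The same call was lost with no filter (0.0923), only the compared groups (0.0532), the replicate block (0.0612) and no intensity trend (0.051). Without ATLO replicate 2 the representing one was called higher in ATLO than in wild type (0.95, adjusted p = 0.00657).

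Among other genes that act on plasma lipoproteins, 3 of 10 listed were measured above the filter. Angptl4, a secreted inhibitor of Lpl, was lower in ATLO, at 1301 ± 365, than outside the lesion, at 2743 ± 880 (SD, n = 4 each; log2 change -1.06, adjusted p = 0.00252), and than in wild type, at 3292 ± 176 (n = 3; -1.38, adjusted p = 0.00134). Its calls were kept with each array left out, and the other 2 genes were called in no comparison.

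The receptor genes Scarb1 and Lrp1 were not called. Scarb1, the receptor that takes cholesteryl ester from high-density lipoprotein, was read at 432.2, 460.2, 506.4 and 654.7 in ATLO, at 610.7, 679.6, 879.6 and 643.8 outside the lesion and at 573, 489.5 and 502.1 in wild type. Only ATLO replicate 4 reached into the outside-lesion range. The difference missed the threshold for all 3 probe sets (log2 changes -0.39 to -0.47, adjusted p from 0.0536 to 0.107). Without ATLO replicate 4 it was called lower in ATLO (-0.58, adjusted p = 0.0218), as it was under equal array medians (-0.58, adjusted p = 0.0136) and quantile normalization (-0.59, adjusted p = 0.0178). Lrp1, the large endocytic receptor for Apoe-bearing remnants, was read at 3696.7, 2426.2, 5541 and 3747.1 in ATLO, at 3710.4, 3176.1, 1892.4 and 2267.2 outside the lesion and at 2520.8, 3161.7 and 3898.4 in wild type. All 3 groups overlapped, and the ATLO arrays alone spanned 2426.2 to 5541 (log2 change from outside-lesion tissue 0.47, 95% interval -0.09 to 1.03, adjusted p = 0.192). With array weights Lrp1 was called higher in ATLO than outside the lesion (0.68, adjusted p = 0.0355).

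Of 11 other uptake receptors and their chaperones measured, 2 were higher and 3 lower in ATLO than outside the lesion, where 19.8% of all genes were higher and 14.9% lower. The higher ones were the scavenger receptor Msr1, found on macrophages (log2 change 1.48, adjusted p = 7.93e-04), and the proteoglycan Sdc1, which plasma cells also carry (0.93, adjusted p = 0.00597). The very low-density lipoprotein receptor Vldlr averaged 1021 ± 242 in ATLO and 3626 ± 765 outside the lesion (SD, n = 4 each; -1.84, adjusted p = 4.40e-05). The fatty acid translocase Cd36, at 3893 ± 963 in ATLO and 10980 ± 2540 outside the lesion (adjusted p = 1.65e-04), and the sorting receptor Sort1 (-1.17, adjusted p = 7.89e-05) were lower as well. The fat cell and endothelial sums given beside Lpl moved the same way, and their part was not tested. Against wild type, 2 were higher in ATLO and 4 lower (all genes: 13.4% and 14%): Sdc1 (1.25) and Msr1 (0.88) were higher, and Cd36 (-1.04), the receptor chaperone Lrpap1 (-0.83), Sort1 (-0.83) and Vldlr (-0.68) lower. Vldlr alone was called between outside-lesion and wild-type adventitia, as higher (1.16, adjusted p = 0.0254). Against wild type, leaving out 1 array ended the ATLO calls of Msr1 (6 of 7 arrays) and Vldlr (5 of 7) and the outside-lesion call of Vldlr (6 of 7).

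Npc2, which hands cholesterol from the lysosomal lumen to the membrane protein Npc1, was read at 14400.2, 7767.7, 13242.3 and 10014.7 in ATLO, at 18186.7, 18919.8, 15040.4 and 14776.8 outside the lesion and at 14473.7, 12549.1 and 12606.5 in wild type. The mutant groups did not overlap, but ATLO replicate 1 lay close below outside-lesion replicate 4. Npc2 was lower in ATLO than in outside-lesion tissue (log2 change -0.59 ± 0.21, adjusted p = 0.0413), and its second probe set missed the threshold (-0.53 ± 0.19, adjusted p = 0.0521). The call was lost without ATLO replicate 2 (adjusted p = 0.0888) or 4 (0.106) and without each outside-lesion replicate in turn (0.0902, 0.0822, 0.0535 and 0.0542), with log2 changes between -0.72 and -0.42 over the 8 arrays left out. It was also lost with the actin ratio as a covariate (-0.28, adjusted p = 0.438). Lipa, the acid lipase that frees cholesterol from its esters, was read at 1115.8, 929.6, 1208.2 and 1163.6 in ATLO, at 1140.1, 677.1, 904.6 and 889.6 outside the lesion and at 744.5, 940.1 and 920.2 in wild type. Its groups overlapped in each comparison, and the ATLO arrays, except replicate 2, lay at the upper end (log2 change from outside-lesion tissue 0.31, 95% interval -0.05 to 0.67, adjusted p = 0.185).

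Among 15 other genes of intracellular cholesterol handling, 3 were higher and 5 lower in ATLO than outside the lesion, where 19.8% of all genes were higher and 14.9% lower. Ch25h, which makes the LXR ligand 25-hydroxycholesterol in macrophages, averaged 371 ± 121 in ATLO and 133 ± 44.6 outside the lesion (SD, n = 4 each; log2 change 1.49, adjusted p = 0.00134). The lipid transporter Abca7 (0.69, adjusted p = 0.0324) and the late endosomal sterol transfer protein Stard3 (0.53, adjusted p = 0.0268) were also higher. The 5 lower genes were Lipe, the hormone-sensitive lipase of fat cells (-1.82, adjusted p = 8.75e-05), the caveolar protein Cav1 (-1.39), the peroxisomal sterol carrier Scp2 (-1.28), the oxysterol-binding protein gene Osbpl1a (-1.08) and the mitochondrial outer membrane protein gene Tspo (-0.54, adjusted p = 0.0443). The fat cell and endothelial sums moved with these 5 as with Lpl, and their part was not tested. Against wild type, Ch25h (1.32) and Npc1 (0.99, adjusted p = 0.00209), the membrane partner of Npc2, were higher in ATLO, and Lipe (-1.22), Osbpl1a (-0.89) and Cav1 (-0.66) were lower. Scp2 was higher outside the lesion than in wild type (1.09, adjusted p = 0.0207), the only call of this list in that comparison, and it was lost without wild-type replicate 2 or 3. Leaving out 1 array also ended the calls between the mutant groups of Tspo (6 of 8 arrays), Abca7 (5 of 8) and Stard3 (4 of 8), and that of Cav1 against wild type (6 of 7).

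**Figure D3:**
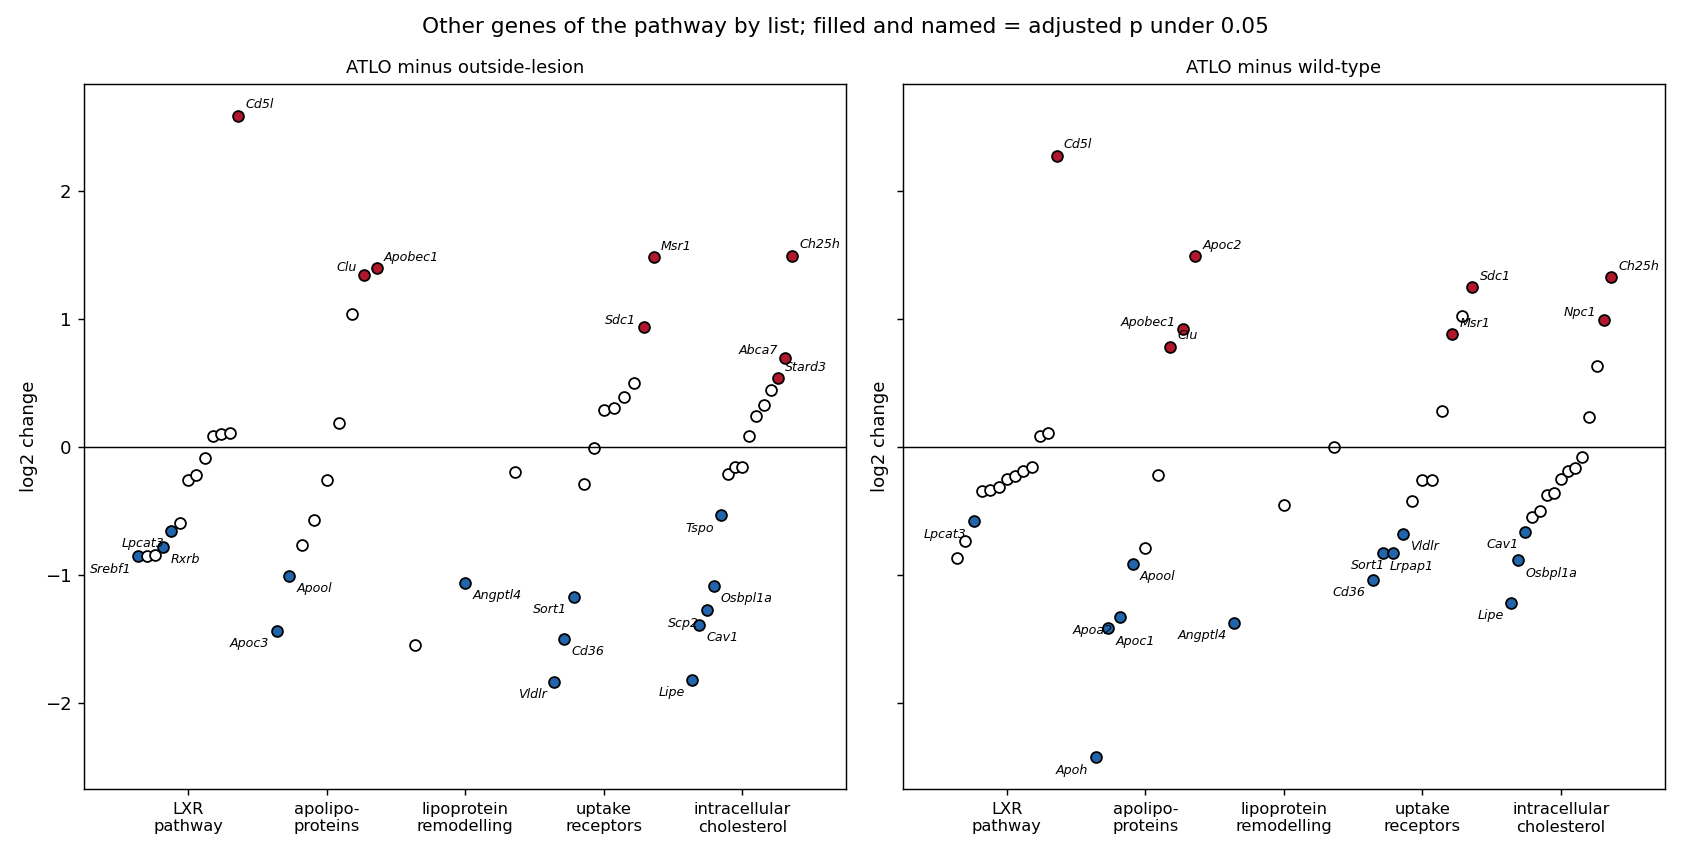
Log2 change of the other measured genes of each list, ATLO minus outside-lesion on the left and ATLO minus wild-type on the right (points: genes ordered by change within a list, filled and named where the adjusted p was under 0.05). Cd5l at 2.58 and 2.27 stands highest in both, and most lists hold called genes in both directions.

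ATLO was then set against wild-type adventitia, a comparison in which genotype, lesion and protocol differ together. Abcg1 was called higher and Apoe lower, which is 2 of the 10 genes, where 27.5% of all genes tested were called (13.4% higher and 14% lower), and the median log2 change of the 10 was 0.04, against -0.05 for all genes. Apoe is the gene targeted in the mutant strain, and Abcg1 was the only call among the representing probe sets of the other members. By their second probe sets Pltp was called higher (limma log2 change 1.35, adjusted p = 0.00317) and Lpl lower (-1.06, adjusted p = 0.0139). The arrays of Abcg1 lay wholly higher (17.7% of all genes did) and those of Apoe and Lpl wholly lower (21.9%). The number of called genes was 5 under quantile normalization, which added Lpl, Npc2 and Pltp, and 4 with array weights, which added Lpl and Pltp.

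The comparison of outside-lesion with wild-type adventitia asks what the Apoe-deficient genotype, with its protocol, went with away from the lesions. It called Apoe alone, 1 of the 10 genes, where 3.08% of all genes tested were called (1.4% higher and 1.68% lower). Apoe is the gene targeted in the mutant strain, so this share says nothing of the other members, which were not called. Of all called genes 45.5% were higher outside the lesion, against 61.7% under quantile normalization and 85.6% under equal array medians. Their number fell to 9 without wild-type replicate 2 and 15 without wild-type replicate 3, was 521 without outside-lesion replicate 2, and ran from 61 to 115 without each of the other arrays of these groups. Although not called, 6 of the 10 genes had every outside-lesion array above every wild-type array, namely Abca1, Abcg1, Lpl, Pltp, Scarb1 and Npc2, where 7.51% of all genes lay so, and Apoe lay wholly below, as did 13.4%. This holds for the probe set that represents each gene. Both probe sets of Lpl and 2 of 3 of Scarb1 separated so, while the second probe sets of Abca1 (-0.21), Pltp (0.59) and Npc2 (0.32) and the third of Scarb1 (0.51) overlapped. For the representing probe sets the log2 changes ran from 0.27 for Abca1 to 0.82 for Pltp, with adjusted p between 0.0784 and 0.379, and those of Lpl and Npc2 turned negative under quantile normalization (-0.10 and -0.14). Abcg1 was called higher outside the lesion under equal array medians (log2 change 0.82, adjusted p = 0.0276), quantile normalization (0.76, adjusted p = 0.0435) and array weights (0.61, adjusted p = 0.046). White adipocyte markers showed the same separation for 5 of 7 genes without a call, and their part was not tested.

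**Figure D4:**
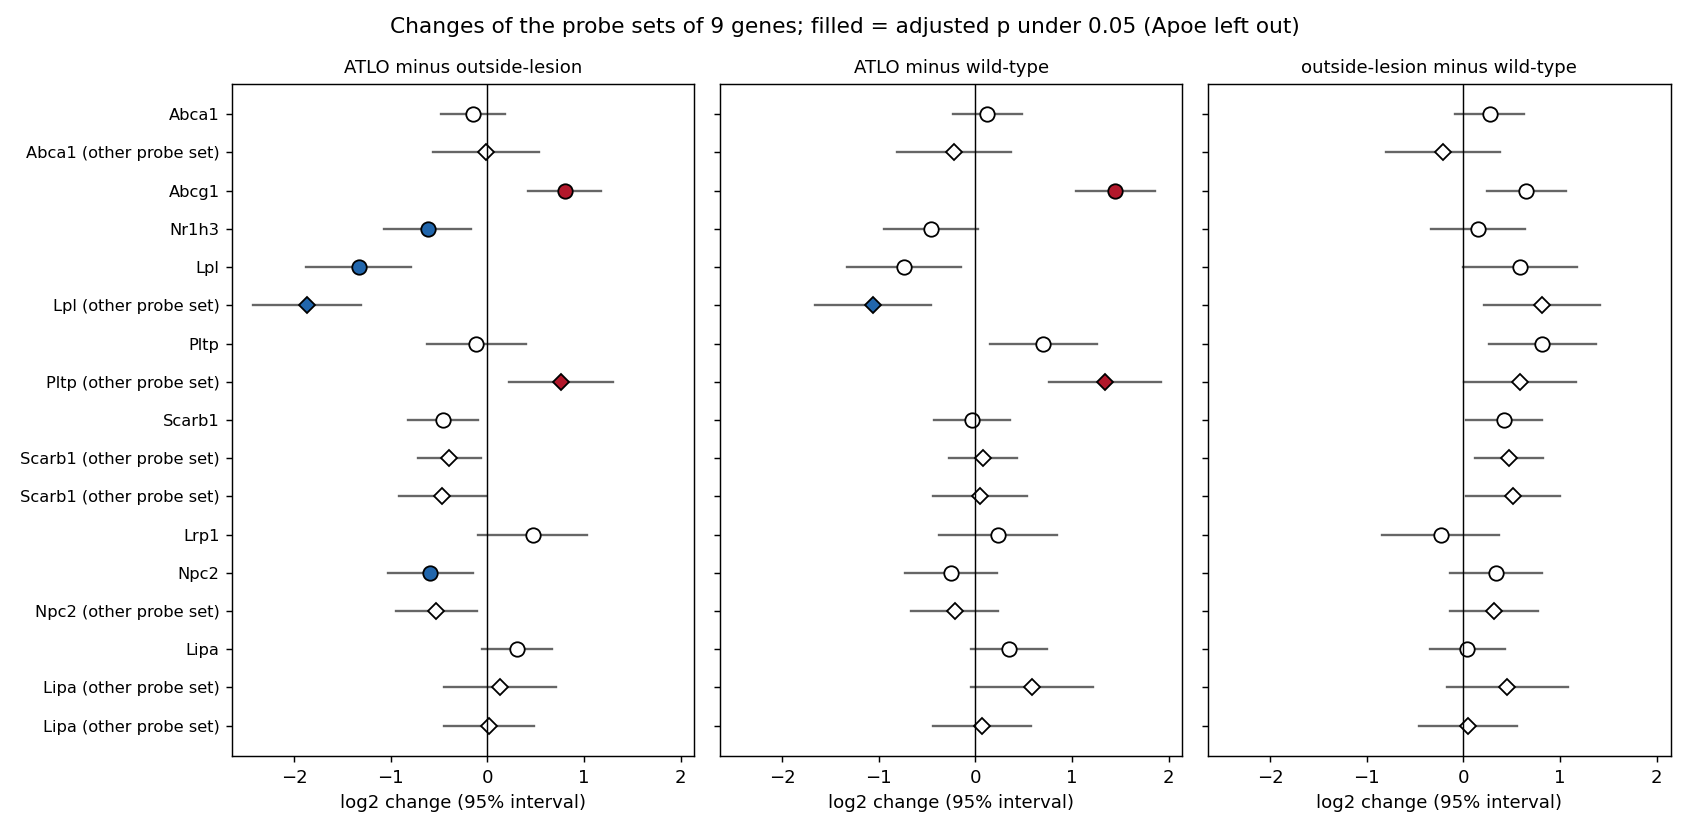
Log2 change with its 95% interval for the 17 tested probe sets of the 9 genes other than Apoe in the 3 comparisons (circles: the probe set that represents a gene, diamonds: other probe sets, filled: adjusted p under 0.05). Abcg1 lies right of 0 and Lpl left of 0 against outside-lesion tissue, and the probe sets of Pltp part there, at -0.12 and 0.76.

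Of 9 genes of the apolipoprotein list that passed the filter, 2 were higher and 2 lower in ATLO than outside the lesion (all genes: 19.8% and 14.9%). The list and its counts also hold Apobec1, an editing enzyme, and Apool, a mitochondrial protein. Clu, which encodes apolipoprotein J, averaged 8260 ± 1850 in ATLO and 3282 ± 847 outside the lesion (SD, n = 4 each; log2 change 1.34, adjusted p = 2.98e-04), and Apobec1, the enzyme that edits the messenger of apolipoprotein B, averaged 650 ± 53.6 in ATLO and 248 ± 30.2 outside the lesion (adjusted p = 6.92e-05). Apoc3, an inhibitor of Lpl, was lower (-1.44, adjusted p = 0.00236), as was Apool, a mitochondrial inner membrane protein gene (-1.01, adjusted p = 0.00141). Against wild type, 3 were higher in ATLO and 4 lower (all genes: 13.4% and 14%), with Apoc2, the activator of Lpl, at 1.49 (adjusted p = 0.041) beside Apobec1 (0.92) and Clu (0.78) as higher. Apoc2 averaged 176 ± 48.6 in ATLO and 59.9 ± 58.5 in wild type (SD, n = 4 and 3). Its wild-type signals lay near the floor of 35.1, so the size of its change is approximate. The 4 lower were Apoh, Apoc1 (-1.42), Apoa2 (-1.33) and Apool (-0.92). Apoh averaged 26.3 in ATLO, below the floor of 35.1 to which signals were raised, against 209 in wild type, so it was at least 5.37-fold lower at that floor (adjusted p = 0.00155), and its log2 change ran from -3.19 to -1.67 over the alternatives. Apoh (54.3 outside the lesion, at least 3.60-fold lower, adjusted p = 0.0386) and Apoc1 (log2 change -1.16, adjusted p = 0.0482) were also lower outside the lesion than in wild type, calls that held under 7 of 16 and 6 of 20 alternatives. Apoh lost that call without outside-lesion replicate 1 or 4, and Apoc1 lost it for 6 of 7 arrays, all but outside-lesion replicate 2. Leaving out 1 array also ended the ATLO calls against wild type of Apoc2 (5 of 7 arrays), Apoa2 and Clu (3 of 7 each). Apoh and Apoa2 are mainly made in liver, and 2 genes listed as hepatocyte markers were tested. Albumin (Alb) averaged 66.7 in ATLO, 128 outside the lesion and 249 in wild type, and was called lower in ATLO than in wild type. Between the mutant groups Alb (limma log2 change -1.01, adjusted p = 0.0204) and Cyp2e1 (-1.21, adjusted p = 0.00993) were both called lower in ATLO. Cyp2e1 averaged 11330 in ATLO, 26070 outside the lesion and 14560 in wild type, and was not called against wild type in ATLO (log2 change -0.45, adjusted p = 0.344) or outside the lesion (0.76, adjusted p = 0.206). Its group means had the order of the white adipocyte sums by their medians, and not that of Alb. Whether Cyp2e1 reads liver RNA in this tissue was not tested. Of 4 hepatocyte markers on the array, up to 2 lay at or below the floor on mutant arrays and 0 on wild-type arrays, and their part in these results was not tested.

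Apoc1 lies next to Apoe on chromosome 7, and 20 genes from the same stretch, up to 23 protein-coding genes away in the RefSeq annotation, passed the filter. Against wild type 3 of them were higher and 4 lower in ATLO, and 0 higher and 1 lower outside the lesion, which is 7 and 1 of 20 where 27.5% and 3.08% of all genes were called. Apoc1 averaged 865 ± 292 in ATLO and 1042 ± 332 outside the lesion (SD, n = 4 each), against 2226 ± 233 in wild type (n = 3), and was the only gene of the stretch called in both comparisons, which share the wild-type arrays. Its mutant groups did not differ detectably (log2 change -0.26, adjusted p = 0.5). Tomm40, the neighbour on the other side, which encodes a pore of mitochondrial protein import, averaged 299 ± 14.5 in ATLO, 421 ± 18.5 outside the lesion and 324 ± 13.5 in wild type, and was called only between the mutant groups (-0.49, adjusted p = 0.0138). Further calls against wild type in ATLO were the NF-kappaB pathway genes Bcl3 (2.04, adjusted p = 0.00173) and Relb (320 ± 33.9 in ATLO and 142 ± 105 in wild type, adjusted p = 0.0318), Apoc2, and, as lower, the adhesion receptor gene Bcam (194 ± 53.2 in ATLO and 538 ± 93.5 in wild type, adjusted p = 7.59e-04), Ppp1r37 (-1.11) and Cblc (-0.72). Between the mutant groups Bcl3 (1.89) and Zfp296 (1.22) were higher and Bcam (-0.66), Bloc1s3 (-0.62) and Tomm40 lower in ATLO. Leaving out 1 array ended the calls against wild type of Ppp1r37 and Cblc (5 of 7 arrays each) and Relb (each ATLO array), and those between the mutant groups of Bloc1s3 (6 of 8), Bcam and Zfp296 (4 of 8 each).

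**Figure D5:**
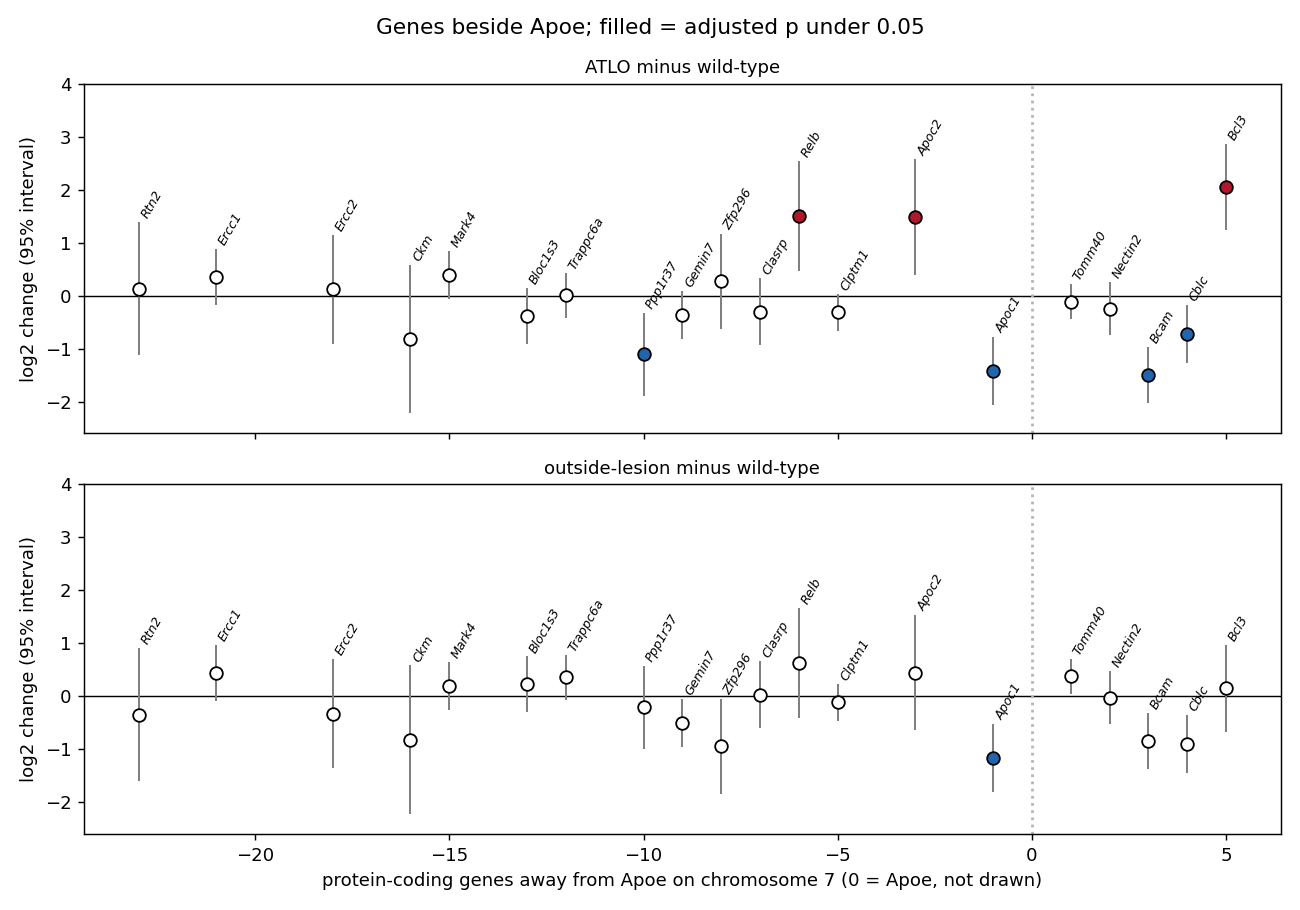
Log2 change with its 95% interval for 20 genes beside Apoe by their order on chromosome 7, ATLO minus wild-type above and outside-lesion minus wild-type below (position 0 is Apoe, not drawn, filled points: adjusted p under 0.05). Apoc1, directly beside Apoe, is lower in both panels, at -1.42 and -1.16, and Bcl3 and Relb are higher in the upper panel.

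The genes whose profile over the 11 arrays lay closest to that of a called member were found by the root mean square difference of centred log2 signals, as a description. For Lpl these were Adipoq, which encodes the fat cell hormone adiponectin (0.13), the aminoacylase gene Acy3 (0.15) and Eif4ebp1, a regulator of translation (0.17). Adipoq averaged 12670 in ATLO, 33420 outside the lesion and 20920 in wild type, the same order of groups as Lpl. For Abcg1 they were the glucose transporter Slc2a1 (0.18), the histone variant H2az1 (0.18) and Pck2, a mitochondrial enzyme of gluconeogenesis (0.19), and for Npc2 they were Aldh7a1 (0.11), Pebp1 (0.14) and Cd151 (0.15). Podxl (0.11), Wwtr1 (0.17) and Rarg (0.18) were closest to Nr1h3. The closest to Apoe were further off, Sost (2.09), Npnt (2.16) and Marco (2.23). These values are differences in log2 units over arrays that share groups and protocols.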

How the data were processed

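Scaled intensities per probe set were deposited by the authors for 11 arrays. They were made with GCOS 1.4, per the submitters' processing notes, and each array had a mean of about 500.2 after trimming 2% at each end. Detection calls were not used. Controls (64 of 22690 probe sets) were dropped. The platform annotation gave 1 symbol for 20380 probe sets, several for 691 and none for 1555. Signals were raised to a floor of 35.1 (their 20th percentile) and taken to log2, so changes near the floor are understated. Of the probe sets, 14988 passed the level filter. In R 4.3.3, limma 3.58.1 fitted a mean per group (variance prior with intensity trend), and p-values were adjusted over all tested probe sets by Benjamini-Hochberg. The fit was tested on simulated data. The members and lists were chosen with earlier results of these data known. Other list genes were to be named where called, at most the 5 with the largest log2 change per list and comparison. Where more were called, the rest were named after their values were seen. The files name no build, so only promoters carry coordinates. Alternatives were other scalings, floors and filters, array weights, the replicate number as a block, averaged probe sets, the actin ratio as covariate and each array left out. The main fit did not pair samples by replicate number. The sample titles do not say whether equal numbers mark paired samples.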

Additional observations from a re-analysis of the deposited data

Results flagged for a closer look

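Among 40 groups of 4 arrays (19 probe sets and the actin ratio in each mutant group), 5 held an array far from the others of its group by Dixon's criterion, where chance alone gives about 1 in 20 groups. Apoe on ATLO replicate 4 was read at 86.9, where the other ATLO arrays lay between 147 and 150.2. Outside-lesion replicate 2 was far from its group for 3 of them: Abca1 was read at 6176.5 against 4145.9 to 4317.4 by its representing probe set and at 310.6 against 168.3 to 187.2 by its second, and the third probe set of Lipa at 205.5 against 276.7 to 288.2. A second probe set of Scarb1 was read at 622.8 on ATLO replicate 1, where the others lay between 458.7 and 481.5. Outside-lesion replicate 2 is also the array with the low brown adipocyte sum of 7247.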

How the results depend on the processing

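Over all alternatives, 191 values of called member changes kept direction and call, 29 kept direction but not the call and 0 changed sign. Of uncalled ones, 773 stayed so, 34 became called and 41 changed sign. For genes of the other lists, 971 values of called changes stayed called, 178 did not and 0 changed sign. Of 57 such called changes, 32 held under every alternative run and 22 were lost without at least 1 array.

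Members called between ATLO and outside-lesion tissue numbered 4, against 5 with quantile normalization, equal array medians, the stricter filter or averaged probe sets (Scarb1 added) and with array weights (Lrp1 added), 3 with only the compared groups or the replicate block, 2 with no filter and 1 with the actin covariate (Lpl), and 2 to 4 when 1 array was left out. Between ATLO and wild type they numbered 2, against 5 with quantile normalization, 4 with array weights, 4 with probe sets averaged and 2 to 3 with an array left out. Between outside-lesion and wild type they numbered 1, against 2 with quantile normalization, equal array medians or array weights, 0 with the stricter filter, under which Apoe was not tested, and 1 with any array left out.

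All genes called numbered 3142 between ATLO and outside-lesion tissue, against 1661 with the actin covariate and 2599 to 3009 with an array left out, and 2489 between ATLO and wild type, against 1702 to 2190. Between outside-lesion and wild type, 279 were called, against 177 with no filter, 111 with only the compared groups, 108 with the replicate block, 905 with array weights, 131 with no intensity trend, 165 with probe sets averaged, 49 with the actin covariate and 9 (without wild-type replicate 2) to 521 (without outside-lesion replicate 2) with an array left out. The share of calls that were higher was 57% between ATLO and outside-lesion tissue and 44.9% under equal medians, and 45.5% between outside-lesion and wild type, 61.7% under quantile normalization and 85.6% under equal medians. Equal medians moved the median change of all probe sets from 0.10 to -0.02 and from -0.11 to 0.06 in these comparisons. With the replicate number as a block, 3, 2 and 1 members were called in the 3 comparisons. Correlations of same-numbered deviations ran from -0.18 to 0.27, and under the block Nr1h3 lost its call (adjusted p = 0.0651), as did the second probe set of Pltp (0.0612).

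Sign changes, all of uncalled log2 values, were as follows. For ATLO minus outside-lesion, Abca1 was 0.006 under quantile normalization and its second probe set 0.005 with array weights. Pltp was 0.115 under quantile normalization, 0.099 with weights, 0.322 averaged and 0.216 with the actin covariate, and the third Lipa probe set was -0.121, -0.10 and -0.078 under quantile normalization, equal medians and weights. For ATLO minus wild-type, Scarb1 was 0.018 under equal medians, 0.075 with weights and 0.029 averaged, the third Lipa probe set -0.061 with weights and Abca1 -0.05 averaged. For outside-lesion minus wild-type, Lpl was -0.097, Npc2 -0.138 and its second probe set -0.015 under quantile normalization. With the actin covariate the second Abca1 probe set was 0.096, Lipa -0.108 and the third Lipa probe set -0.084. With an array left out, values spanned 0 for the second Abca1 probe set (-0.184 to 0.194), Pltp (-0.242 to 0.127), the second Lipa probe set (-0.097 to 0.33) and the third Lipa probe set (-0.101 to 0.128) in ATLO minus outside-lesion. In ATLO minus wild-type they did for Scarb1 (-0.161 to 0.039), the second Scarb1 probe set (-0.02 to 0.127), the third Scarb1 probe set (-0.07 to 0.178) and the third Lipa probe set (-0.125 to 0.269), and in outside-lesion minus wild-type for Lipa (-0.08 to 0.17) and the third Lipa probe set (-0.143 to 0.251). The cause was not tested. Values near the floor and the number of arrays limit the precision.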
